A study of Mus musculus with 4 samples.

Results

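The transcripts described here are 34 mouse genes of autophagy and the lysosome, taken by symbol from a table of 23481 genes. All 34 symbols were found in the table and all passed the low-count filter. They were read in RNA sequencing of 4T1-T cells, a line derived from the 4T1 mouse mammary carcinoma, in which Asns had been silenced. Asns encodes the enzyme that makes asparagine, and the silencing was shared by every library, so there was no unsilenced control. Cells were grown in DMEM medium lacking asparagine or in DMEM containing it. Each of the 2 conditions had 2 libraries, named A and B. The labels do not say how Asns was silenced, how long the cells were grown, whether the line was 1 clone, or whether cultures were separate. The p-values therefore describe spread among these samples only, which may be technical.

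In autophagy a double membrane closes around cytoplasm and delivers it to the lysosome. The ULK1 kinase complex and the Beclin 1 lipid kinase complex start the membrane, a ubiquitin-like conjugation system attaches proteins of the Atg8 family to it, and receptors such as p62 tether cargo to those proteins. Lysosomal hydrolases then degrade the content, and amino acids return to the cytosol. TFEB, TFE3 and MITF are transcription factors that activate many of these genes, and mTORC1, which senses amino acids at the lysosome, holds them in the cytosol when nutrients are plentiful. The comparison asks how the transcripts differed when asparagine was missing from the medium.

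Gene counts per library ranged from 17977552 to 30260582. Library A without asparagine had the fewest and stood apart from the other 3. HTSeq placed 56.6% of its reads outside annotated features, against 46.3% to 49.3% elsewhere, and the precursor of ribosomal RNA, Rn45s, made up 3.53% of its gene counts, compared with 0.884% to 1.66%. Counts of the libraries without asparagine differed by a chi-square statistic of 44.7 per degree of freedom, against 5.27 with asparagine, and no 2 libraries were copies. Levels are given as CPM, gene counts scaled to the TMM-adjusted library size. Asns had 75.0 and 89.2 CPM without asparagine (A, then B) and 103 and 101 CPM with it (edgeR adjusted p = 0.235). The epithelial markers Krt8, Krt18, Epcam and Cdh1 were present in every library, while Krt5 was at or near 0. Summed over 6 macrophage markers, whose cells are rich in lysosomes, levels ran from 7.87 to 8.01 CPM without and from 7.06 to 7.17 CPM with asparagine. Most of that was Cd68, and Lyz2 had at most 0.0334 CPM. Several markers differed between the conditions. Epcam averaged 62.0 CPM without and 38.8 CPM with asparagine (edgeR adjusted p = 0.0368), and Cdh1 381 and 269 CPM (adjusted p = 0.106). Krt14, a keratin of basal epithelium, averaged 30.0 CPM without and 4.48 CPM with asparagine (edgeR adjusted p = 0.00434). Pdgfra, which made up nearly all of the fibroblast markers, averaged 20.5 and 41.7 CPM (adjusted p = 0.0221), while Dcn, Lum and Col3a1 were at or near 0. The part of cell state or cell mixture in the results was not tested, and fewer cells of a type and less RNA per cell cannot be told apart.

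None of the 34 members passed the edgeR quasi-likelihood test at an adjusted p of 0.05, in either direction. Over all 12843 genes tested, 1.85% passed, 0.771% higher and 1.07% lower without asparagine. At an unadjusted p under 0.05 there were 3 members, all lower without asparagine: Nbr1, Ctsl and Map1lc3b. That is 8.82% of the members, near the 9.48% of all genes that were lower at this limit, and another 8.65% of all genes were higher. The DESeq2 Wald test called 1 member, Ctsl, lower, against 3.76% of the genes it tested, and limma-voom called 0. The members' log2 fold changes, coded as without minus with asparagine, ran from -0.52 to 0.19. Their median was -0.13, beside 0.01 over all genes tested. Below 0 were 23 members and above 0 were 11, beside 6245 and 6598 of the 12843 genes tested.

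The groups did not overlap for 19 members. Both libraries without asparagine lay below both with it for 13 of 34 members (38.2%), against 26.4% of all genes tested, and above both for 6 (17.6%), against 26.1%. Of the 13 genes of lysosomal membrane and content, 12 had a log2 fold change below 0, with a median of -0.22 (11 of 13 with upper quartile scaling). Of the 18 genes of autophagosome formation and cargo binding, 8 were below 0, with a median of 0.03. The difference between these medians was not tested.

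**Figure D1:**
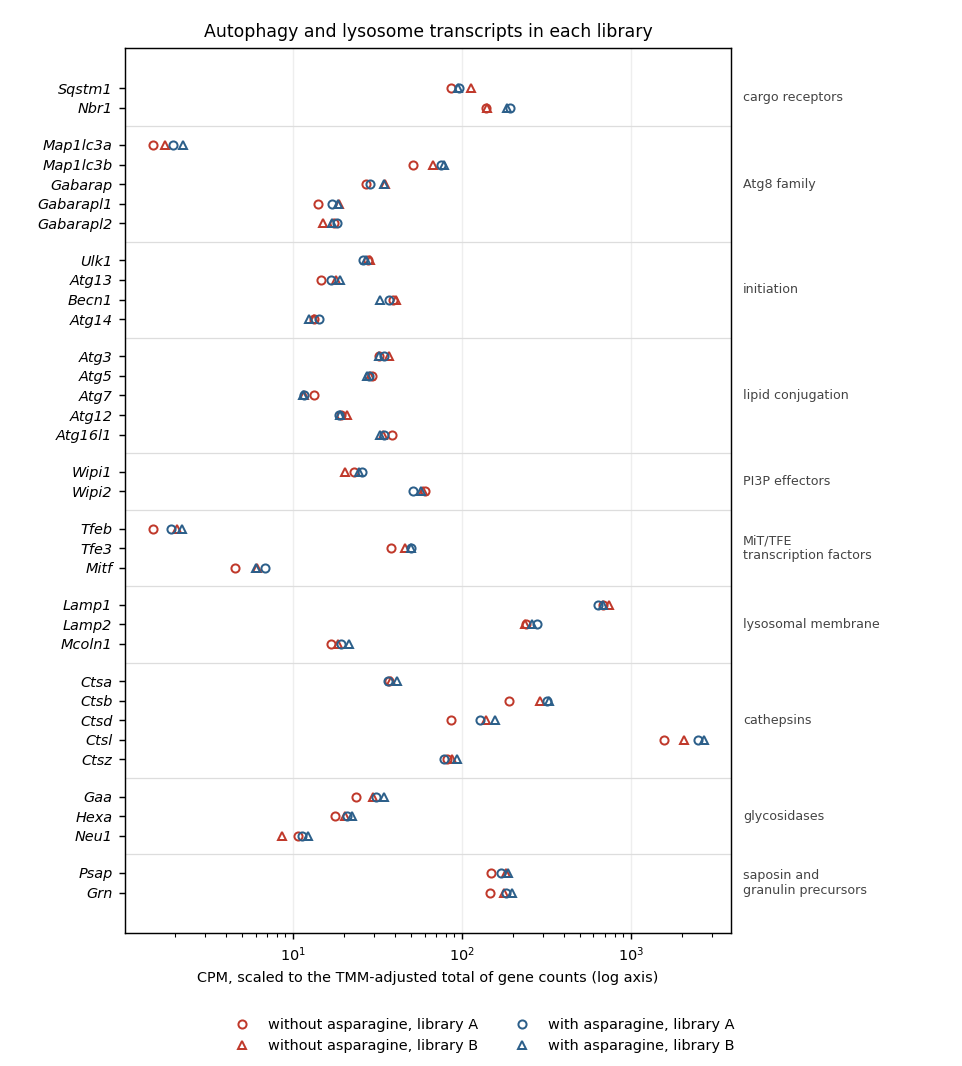
Level of each of the 34 members in each library, in CPM on a log axis, grouped by role; red marks are libraries without asparagine, blue marks libraries with it, circles library A and triangles library B. Ctsl is highest, at 1565 to 2691 CPM, and Map1lc3a and Tfeb are lowest, at 1.47 to 2.24 CPM.

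The fold changes depended on library A without asparagine. Relative to the mean of the libraries with asparagine, the median member was at -0.19 on the log2 scale in library A lacking asparagine and at -0.01 in its partner B. For the lysosomal genes these medians were -0.28 and -0.10, and for the autophagosome genes -0.02 and 0.03. With library A left out, the median log2 fold change of all members was -0.02 and that of the lysosomal genes was -0.10, with 10 of 13 below 0. That fit, whose spread came only from the closely matching libraries with asparagine, called 15.6% of all genes tested. It called 4 members lower, Nbr1, Ctsl, Neu1 and Lamp2, and 1 higher, Sqstm1. With library B left out instead, 40.4% of all genes were called, and 9 members were lower. These were Ctsb, Ctsd, Ctsl, Map1lc3b, Gaa, Nbr1, Tfe3, Grn and Psap, with log2 fold changes from -0.78 for Ctsb to -0.27 for Psap. Leaving out library A or B with asparagine called 0 members, and only 0.438% and 0.363% of all genes. The part of read quality or composition of library A in these values was not tested.

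**Figure D2:**
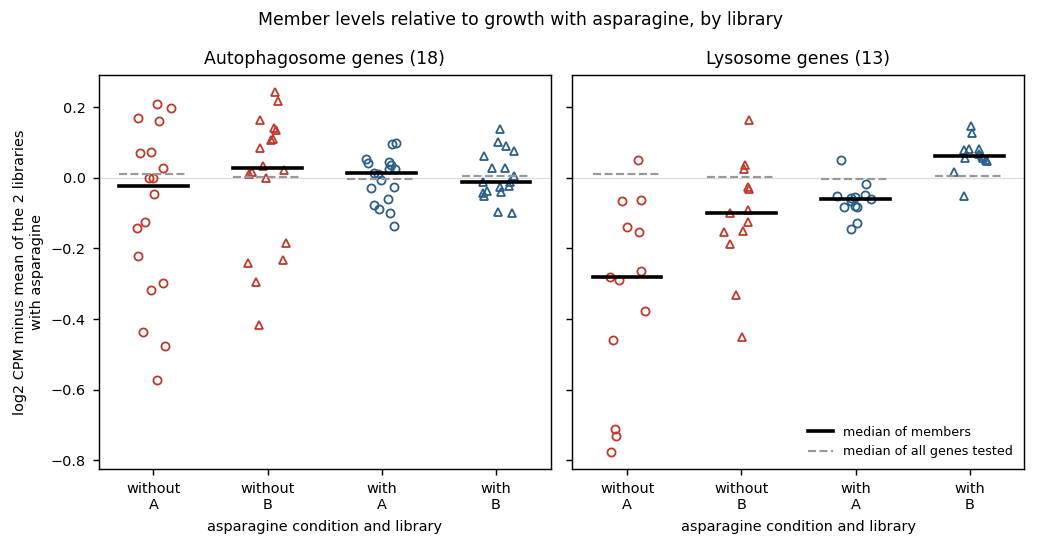
Log2 CPM of each member in each library minus the mean of the libraries with asparagine, for 18 autophagosome genes (left) and 13 lysosome genes (right); black bars are medians of the members and dashed bars medians of all genes tested. Without asparagine, the lysosome median is -0.28 in A and -0.10 in B, and the libraries with asparagine mirror each other around 0 by construction.

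Cargo receptors bind ubiquitinated cargo and Atg8 proteins at once. Nbr1, which also takes part in the degradation of peroxisomes, had 139 and 141 CPM in the A and B libraries lacking asparagine and 193 and 184 CPM with it. The groups did not overlap, and the libraries without asparagine were close to each other. The means were 140 ± 1.24 and 188 ± 6.67 CPM (SD, n = 2 each). On the log2 scale the difference was -0.43 ± 0.10 (SE, edgeR adjusted p = 0.0958), with a 95% interval of -0.66 to -0.19. Without library A it was -0.42, and without library B -0.44. Sqstm1, which encodes p62, the best-known receptor, had 86.3 and 113 CPM without and 96.1 and 94.3 CPM with asparagine. The libraries without asparagine lay on either side of those with it, and the log2 fold change was 0.06 ± 0.14 (adjusted p = 0.836), with an interval of -0.27 to 0.40. It was 0.24 without library A and -0.14 without library B, so its side of 0 depended on the library kept. Nbr1 lies on chromosome 11 from 101552149 to 101581951 in mm10, and Sqstm1 on the same chromosome from 50199366 to 50210827.

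The Atg8 family holds the small proteins that are coupled to lipid on the growing membrane. Map1lc3b encodes LC3B, the common marker of autophagosomes. It had 51.5 and 67.4 CPM when asparagine was missing (A, B) and 75.2 and 78.2 CPM with it. Both libraries without asparagine were lower, with library A the lowest. The log2 fold change of -0.37 ± 0.14 (adjusted p = 0.249) became -0.19 without library A. Its paralogue Map1lc3a was barely transcribed, with 179 reads in all 4 libraries together. It had 1.47 and 1.74 CPM without and 1.93 and 2.24 CPM with asparagine, and its log2 fold change of -0.37 ± 0.26 (adjusted p = 0.483) was the least precise of the family. Gabarap, Gabarapl1 and Gabarapl2, the GABARAP branch, had overlapping groups. Their mean levels were 31.0, 16.4 and 16.2 CPM without and 31.5, 17.6 and 17.6 CPM with asparagine, with log2 fold changes of -0.02, -0.10 and -0.12. Without library A the first 2 of these were above 0, at 0.15 and 0.08, and without library B they were -0.24 and -0.33.

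Among the genes that start the membrane, none passed the test. Becn1, which encodes Beclin 1, had 39.1 and 40.4 CPM without asparagine (A, then B) and 37.1 and 32.5 CPM with it. The groups did not overlap, and the log2 fold change of 0.19 ± 0.12 (adjusted p = 0.413) was the highest of all members. Exons of Becn1 overlap those of Cntd1 on the opposite strand, so reads of Cntd1 could be counted with it, or shared reads for neither gene. Ulk1, the kinase that starts autophagy, had 27.9 and 28.6 CPM without and 26.1 and 27.1 CPM with asparagine (a log2 difference of 0.09, interval -0.17 to 0.35). Atg13, a partner of that kinase, had means of 16.2 ± 2.36 and 17.9 ± 1.58 CPM without and with asparagine. Atg14, which directs Beclin 1 to autophagy, had 13.3 CPM in both conditions. Neither of these last genes had groups that were apart.

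The 5 genes of the conjugation machinery were all above 0, or 4 of 5 when library B of either condition was left out. Atg7 is the activating enzyme, Atg3 passes Atg8 proteins to lipid, and Atg12, Atg5 and Atg16l1 form the complex that sets the place of coupling. Their log2 fold changes were 0.11 for Atg7, 0.05 for Atg3, 0.09 for Atg12, 0.05 for Atg5 and 0.11 for Atg16l1, with adjusted p from 0.638 to 0.857. Mean levels without and with asparagine were 34.5 and 33.5 CPM for Atg3 and 28.8 and 27.7 CPM for Atg5. Atg16l1 had 36.2 and 33.4 CPM, Atg12 had 20.0 and 18.8 CPM, and Atg7 had 12.5 and 11.5 CPM in the same order. Together the 95% intervals of the 5 genes reached from -0.23 to 0.44.

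WIPI proteins read the lipid PI3P on the young membrane. Wipi1 had 22.9 and 20.3 CPM in the A and B libraries lacking asparagine and 25.4 and 24.5 CPM with it. Both values without asparagine were lower, here with library B the lowest, and the log2 fold change was -0.21 ± 0.12 (adjusted p = 0.403). It was -0.30 without library A and -0.13 without library B. Wipi2, which recruits the Atg16l1 complex, lay on the other side of 0, with 60.4 and 58.4 CPM without and 51.2 and 57.0 CPM with asparagine (a log2 difference of 0.13 ± 0.11, adjusted p = 0.540).

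Among the transcription factors, Tfe3 was the most abundant and Tfeb the least. Tfe3 had 37.9 and 46.1 CPM when asparagine was missing (A, B) and 49.7 and 49.9 CPM with it. Its groups did not overlap, and the log2 fold change was -0.24 ± 0.13 (adjusted p = 0.358), or -0.11 without library A. Mitf, the melanocyte factor of the family, had 4.52 and 6.13 CPM without and 6.85 and 6.04 CPM with asparagine, with library A alone below the others (log2 fold change -0.27 ± 0.21, adjusted p = 0.522). Tfeb had 1.47 and 2.06 CPM without and 1.89 and 2.20 CPM with asparagine, from 184 reads in all (log2 fold change -0.21, interval -0.87 to 0.46). Leaving out library A took Mitf to -0.07 and Tfeb to -0.0025, and leaving out library B took them to -0.51 and -0.49. These are levels of transcript and do not measure where the proteins were in the cell.

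Cathepsins are the proteases of the lysosome, and Ctsl, which encodes cathepsin L, had the lowest fold change of the 34 members. Its level was 1565 and 2065 CPM without asparagine (A, then B) and 2507 and 2691 CPM with it. Both libraries without asparagine were lower, and they differed from each other more than those with asparagine did. The means were 1815 ± 354 and 2599 ± 130 CPM (SD, n = 2 each), which is 1.43-fold lower without asparagine. In log2 terms this was -0.52 ± 0.15 (edgeR adjusted p = 0.161; DESeq2 Wald adjusted p = 0.0394), with an interval of -0.88 to -0.16. Without library A it was -0.33, and without library B -0.73. Ctsl alone made up 39.8% and 43.2% of the members' summed CPM without asparagine (A, then B), and 48.2% and 48.9% with it. It lies on chromosome 13 from 64359337 to 64370890, and its exons overlap those of Gm47123 on the opposite strand and of Gm49230 on the same strand.

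Ctsb and Ctsd followed library A more closely. Ctsb, the cysteine protease cathepsin B, had 189 and 290 CPM in the A and B libraries lacking asparagine and 319 and 326 CPM with it. The groups did not overlap, but library B came close to those with asparagine, and the log2 fold change of -0.43 ± 0.19 (adjusted p = 0.296) became -0.16 without library A. Ctsd, the aspartic protease cathepsin D, had 86.5 and 139 CPM without and 128 and 157 CPM with asparagine. Here the groups overlapped, and the log2 fold change of -0.33 ± 0.22 (adjusted p = 0.449) became -0.04 without library A. The serine carboxypeptidase gene Ctsa, whose product also protects other lysosomal enzymes, had 37.4 ± 0.620 and 38.8 ± 3.13 CPM (SD, n = 2 each). Ctsz, a carboxypeptidase gene, had 84.6 ± 4.09 and 85.7 ± 10.7 CPM in the same order. Their log2 fold changes were -0.05 and -0.02, with intervals of -0.32 to 0.21 and -0.31 to 0.27.

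The 3 glycosidase genes all had groups that did not overlap, lower without asparagine, an order also seen in 26.4% of all genes tested. Gaa, the enzyme that breaks down glycogen in lysosomes, had 23.7 and 29.9 CPM when asparagine was missing (A, B) and 30.8 and 34.5 CPM with it (a log2 difference of -0.28 ± 0.15, adjusted p = 0.356). Hexa, a subunit of the hexosaminidase that degrades gangliosides, had 17.7 and 20.3 CPM without and 20.9 and 22.4 CPM with asparagine (a log2 difference of -0.19 ± 0.13, adjusted p = 0.472). Neu1, the lysosomal sialidase, had 10.7 and 8.59 CPM without and 11.3 and 12.2 CPM with asparagine (a log2 difference of -0.29 ± 0.16, adjusted p = 0.380). In Neu1 library B was the lowest, and the difference was -0.46 without library A and -0.15 without library B. Gaa and Hexa went the other way, to -0.13 and -0.10 without library A and -0.47 and -0.30 without library B.

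Psap and Grn encode precursors that are cut in the lysosome, into saposins that help degrade sphingolipids and into granulins. Grn had 145 and 176 CPM without asparagine (A, then B) and 181 and 197 CPM with it. Its groups did not overlap, with a narrow gap between library B without and library A with asparagine (log2 fold change -0.23 ± 0.13, adjusted p = 0.375). Psap had 149 and 182 CPM without and 171 and 187 CPM with asparagine, with overlap (log2 fold change -0.11 ± 0.13, adjusted p = 0.662). Without library A these values were -0.10 and 0.02.

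LAMP1 and LAMP2 are the main glycoproteins of the lysosomal membrane, and LAMP2 also serves in chaperone-mediated autophagy. Lamp1, the one lysosomal member above 0, had 681 and 738 CPM in the A and B libraries lacking asparagine and 634 and 684 CPM with it. Its groups overlapped by library A without and library B with asparagine (log2 fold change 0.11 ± 0.11, adjusted p = 0.628). Lamp2 had 240 and 234 CPM without and 277 and 258 CPM with asparagine, with no overlap (log2 fold change -0.17 ± 0.10, adjusted p = 0.405). Mcoln1, a calcium channel that signals from the lysosome, had 16.7 and 18.3 CPM without and 19.3 and 21.5 CPM with asparagine, again with no overlap (log2 fold change -0.22 ± 0.13, adjusted p = 0.411).

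**Figure D3:**
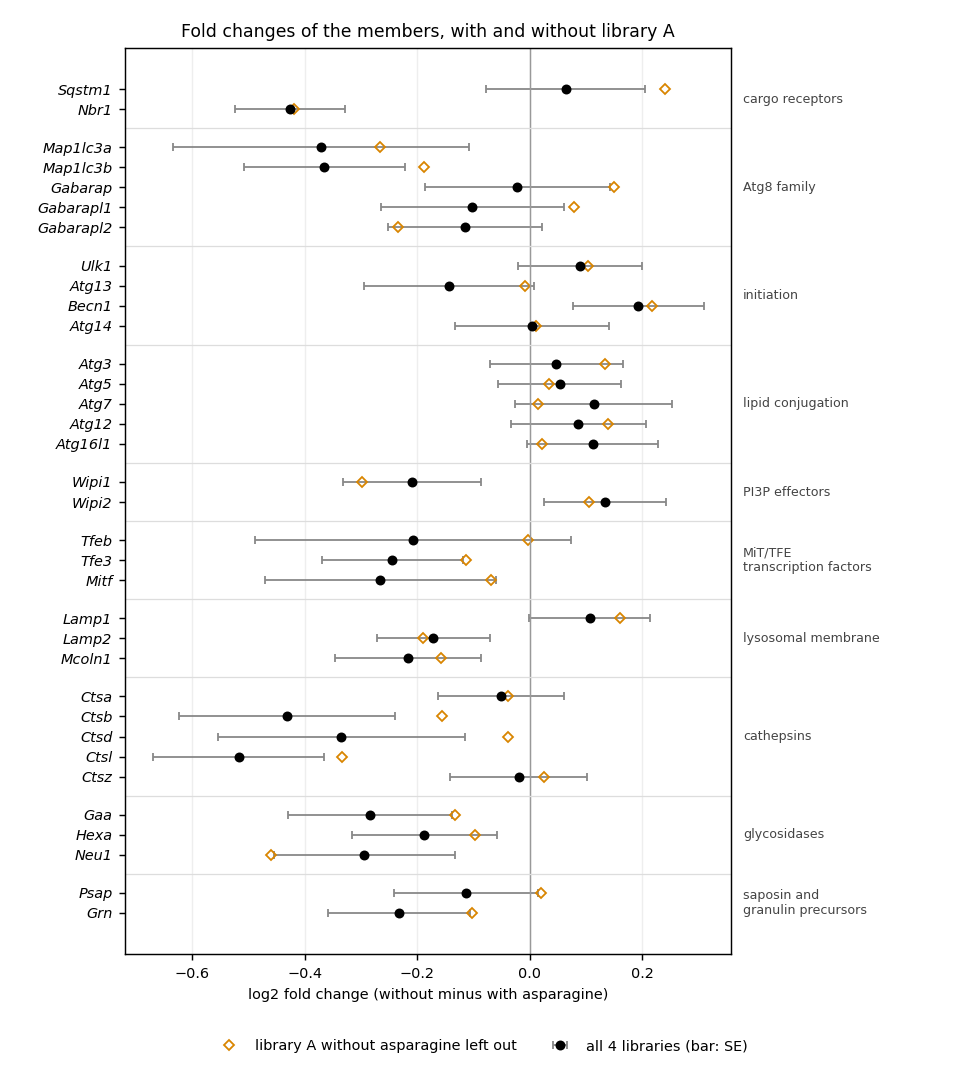
Log2 fold change (without minus with asparagine) of each member, grouped by role; black points with SE bars use all 4 libraries and open diamonds leave out library A without asparagine. Nbr1 stays near -0.43, Ctsl moves from -0.52 to -0.33, and Ctsb and Ctsd move to -0.16 and -0.04.

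Per kilobase of exon, the 7 highest levels all belonged to lysosomal genes, though Mcoln1 and Neu1 were low at 2.70 and 3.15 CPM per kb with asparagine. With asparagine, Ctsl had a level of 401 CPM per kb and Lamp1 of 246 CPM per kb. Psap, Ctsd, Ctsz, Grn and Ctsb followed at 65.2, 60.5, 59.5, 54.4 and 53.3 CPM per kb. The highest autophagy genes on this scale were Sqstm1 and Nbr1, at 28.4 and 27.4 CPM per kb, while Tfeb, Mitf and Atg7 were lowest at 0.361, 1.04 and 1.65 CPM per kb. Lengths were unions of all annotated exons, so a gene with long rare exons is understated.

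The promoters were examined because the lysosomal genes share a described element, the CLEAR site, to which TFEB and its relatives bind and which is built on the E-box CACGTG. RefSeq promoter windows (GRCm38.p6, from 250 bases before to 50 after the start) were found for 29 members, and Map1lc3a, Becn1, Atg12, Atg16l1 and Ctsb had none in the table. Both CACGTG and its extension TCACGTGA, which contains it, read the same on either strand. CACGTG was present for 10 of 29 members (34.5%), against 11.7% of 9406 tested genes and 8.09% of all 27025 genes with a window. Counted by window, it was in 27.0% of the members' windows and 7.15% of all 32851 windows. Among 12 lysosomal members with a window it was present in 6. TCACGTGA was present for 4 members, Ctsa, Ctsd, Mcoln1 and Atg3, against 2.18% of tested genes. The 6 lysosomal promoters and that of Atg3 follow, 5′ to 3′ on the gene's strand, with each match in capitals.

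Lamp1 (chr8:13159085-13159160, + strand): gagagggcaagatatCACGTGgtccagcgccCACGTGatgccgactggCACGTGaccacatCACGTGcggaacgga
Mcoln1 (chr8:3500433-3500494, + strand): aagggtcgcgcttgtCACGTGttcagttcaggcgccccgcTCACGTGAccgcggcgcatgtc
Ctsa (chr2:164833746-164833784, + strand): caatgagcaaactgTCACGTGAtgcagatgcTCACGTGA
Ctsd (chr7:142387905-142388077, - strand): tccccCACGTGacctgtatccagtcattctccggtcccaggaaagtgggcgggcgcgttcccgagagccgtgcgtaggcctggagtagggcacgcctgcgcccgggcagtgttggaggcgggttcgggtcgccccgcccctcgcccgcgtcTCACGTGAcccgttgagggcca
Ctsl (chr13:64370736-64370770, - strand): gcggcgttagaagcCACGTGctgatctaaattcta
Gaa (chr11:119267808-119267843, + strand): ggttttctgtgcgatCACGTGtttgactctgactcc
Atg3 (chr16:45158720-45158778, + strand): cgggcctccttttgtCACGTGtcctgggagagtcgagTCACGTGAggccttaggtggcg

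Lamp1 held 4 copies of CACGTG within the 76 bases before its start, and Mcoln1, Ctsa, Ctsd and Atg3 held 2 each. Lamp1 was also the one lysosomal member above 0, but its groups overlapped (log2 fold change 0.11 ± 0.11, edgeR adjusted p = 0.628). Whether the number of copies went with the fold change was not tested. The 6 lysosomal members with CACGTG had a median log2 fold change of -0.25, and the 6 without it of -0.18. On the autophagosome side the order was the opposite, 0.05 for 4 members with the motif and -0.11 for 10 without, and over all 29 members it was -0.02 with and -0.17 without. Over all genes tested, those with CACGTG had a median of 0.01 and those with TCACGTGA of -0.04. Of the 1099 genes with CACGTG, 10 were called higher and 8 lower (1.64%), against 1.70% of genes without the motif. Of the 205 genes with TCACGTGA, 2 were called, both lower (0.976%), against 1.71% of genes without it. A match of letters is a description and does not show that a factor was bound.

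A wider set of 142 genes of the same pathway, in 7 lists, held 2 called genes, both lower without asparagine. Of these genes 137 were tested, so 1.46% were called, near the 1.85% of all genes. There were 92 with a log2 fold change below 0, and the list's median was -0.10, or -0.03 without library A. At an unadjusted p under 0.05 there were 8 higher (5.84%) and 15 lower genes (10.9%), beside 8.65% and 9.48% of all genes, and limma-voom called the same numbers as edgeR. Both libraries without asparagine lay below both with it for 55 genes (40.1%) and above for 23 (16.8%), beside the 26.4% and 26.1% of all genes given above. Tpcn1, a two-pore cation channel of endosomes and lysosomes, fell from 104 and 112 CPM with asparagine (A, then B) to 54.0 and 64.2 CPM without it. The 4 values were well apart, and the log2 fold change was -0.87 ± 0.12 (adjusted p = 0.0243), or -0.75 without library A. Bnip3, a mitophagy receptor that is also a target of hypoxia-inducible factor, fell from 38.6 and 41.6 CPM to 22.3 and 25.5 CPM. Its log2 fold change was -0.75 ± 0.12 (adjusted p = 0.0368), or -0.66 without library A. Each call was lost when 1 of the libraries with asparagine was dropped. Dropping A or B of that condition, the log2 fold change was -0.92 and -0.82 for Tpcn1 (adjusted p = 0.127 and 0.222) and -0.80 and -0.69 for Bnip3 (adjusted p = 0.247 and 0.432). Tpcn1 lies on chromosome 5 from 120534153 to 120588673 and Bnip3 on chromosome 7 from 138890836 to 138909519, where its exons overlap Gm45507 on the opposite strand.

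The other enzymes and proteins of the lysosomal lumen had the lowest median of the wider lists, -0.23, with 29 of 37 tested genes below 0. Both libraries without asparagine were below both with it for 24 of them (64.9%) and above for 6 (16.2%). Over all genes tested these shares were 26.4% and 26.1%. Without library A the median was -0.16 and 27 genes were below 0. None was called by edgeR, though 2 were higher (5.41%) and 9 lower (24.3%) at an unadjusted p under 0.05, beside the same 8.65% and 9.48% of all genes. Ctso, a cathepsin gene with 5.34 and 7.42 CPM without and 11.2 and 10.4 CPM with asparagine, had the lowest p of the list (log2 fold change -0.75 ± 0.19, adjusted p = 0.125). The other lysosomal membrane genes, the list of Tpcn1, had a median of -0.02 over 22 tested genes, 12 of them below 0.

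Subunits of the V-ATPase, the proton pump that acidifies the lysosome, had a median of -0.04 over 17 tested genes. Atp6v0e2 had the smallest p among them, at 1.31 and 1.57 CPM without and 0.504 and 0.534 CPM with asparagine (a log2 difference of 1.46 ± 0.34, adjusted p = 0.0968). Atp6v0c was listed at 0 reads in all libraries. Genes of sorting and fusion had a median of -0.08 over 18 tested genes. In that list Igf2r, a mannose 6-phosphate receptor that carries hydrolases to lysosomes, came closest to a call. It had 201 and 273 CPM without and 408 and 417 CPM with asparagine, well apart (log2 fold change -0.80 ± 0.15, adjusted p = 0.0609; DESeq2 Wald adjusted p = 1.88e-04), and the difference was -0.60 when library A was left out. M6pr, another mannose 6-phosphate receptor gene of that list, had overlapping groups (log2 fold change -0.02, edgeR adjusted p = 0.970). Other autophagosome formation genes had a median of -0.03 over 23 tested genes. Epg5, a factor that tethers autophagosomes to late endosomes and lysosomes, had 65.9 and 53.5 CPM without and 47.1 and 42.2 CPM with asparagine (a log2 difference of 0.42 ± 0.14, adjusted p = 0.183). Other autophagy receptors, the list of Bnip3, had a median of -0.14 over 15 tested genes. Folliculin and the Rag GTPases, which relay amino acid state to TFEB and TFE3, had log2 fold changes from -0.32 to 0.18 over 5 tested genes. Rraga had the smallest p of that list, with 75.5 and 83.9 CPM without and 90.7 and 92.6 CPM with asparagine (a log2 difference of -0.20 ± 0.11, adjusted p = 0.363).

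**Figure D4:**
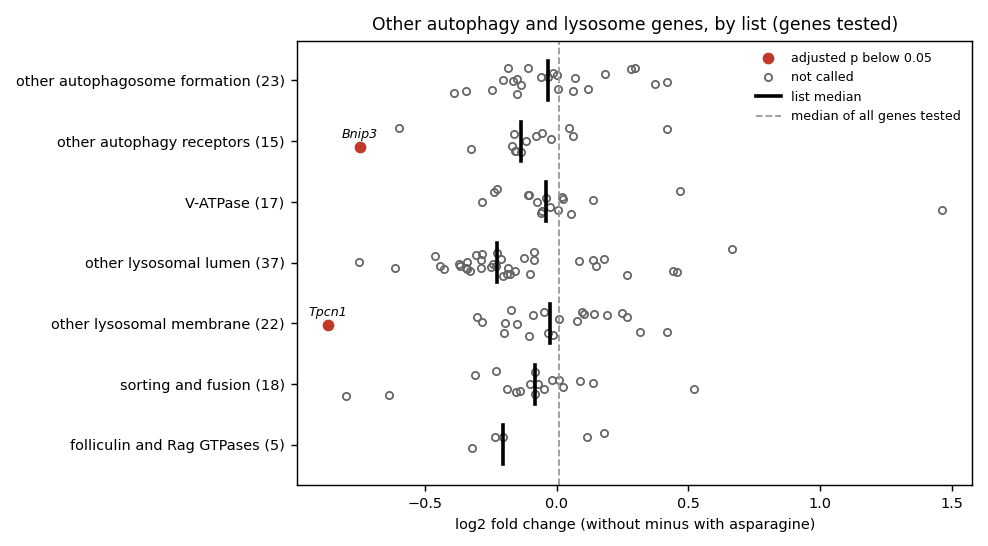
Log2 fold change (without minus with asparagine) of each tested gene in 7 further lists of the pathway; filled red points are the called genes Tpcn1 and Bnip3, black bars list medians and the dashed line the median of all genes tested. The lumen list has the lowest median, at -0.23, and the isolated point on the right is Atp6v0e2 at 1.46.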

How the data were processed

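Per the submitters' processing notes, the authors used Bowtie2 and HTSeq on build mm10. Neither versions nor settings, annotation or strandedness were stated in the notes used here. The deposited values were raw counts of reads per gene symbol for 4 libraries, with the Nugen Ovation RNAseq V2 kit named in the labels' protocols. The 5 HTSeq summary rows, 60.1% to 70.0% of all reads, entered neither library sizes nor tests. They list 0 reads as not unique, and how reads matching several gene copies were treated is not stated. Strandedness and the handling of reads over shared exons are unknown. Such reads may have been counted for a gene, for its opposite-strand neighbour, or for neither, as a summary row for ambiguous reads exists. In GENCODE M21 this concerns exons of Atg14, Becn1, Ctsa, Ctsb, Ctsl, Ctsz, Gabarapl1, Grn, Hexa, Lamp1, Map1lc3b and Sqstm1, and Ctsd and Ctsl overlap another gene on their own strand.

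Genes passing filterByExpr (minimum count 10, minimum total 15), 12843 in all, were normalized with TMM, then fitted in edgeR 4.0.16 (quasi-likelihood F test, groups only), with Benjamini-Hochberg adjustment over all of them. SE is the size of the log2 fold change divided by the square root of F, and 95% intervals use the test's degrees of freedom. CPM use the TMM-adjusted total of counts over the genes that passed the filter, and log2 CPM a prior count of 2. Alternatives were run with DESeq2 1.42.0 and limma 3.58.1 in R 4.3.3. The pipeline was tested on simulated data. Members and lists were chosen with earlier results of these data known. Values per library are given for the 16 members with the smallest p, and, chosen after their values were seen, for Sqstm1, Ulk1, Wipi2, Tfeb, Lamp1 and Psap. Promoters of Lamp1, Ctsa and Atg3, outside those 16, were also added then. From each wider list up to 3 called genes are named, or the one with the smallest p, and M6pr was added after its values were seen. Lengths, positions and overlaps come from GENCODE M21 on the mm10 assembly.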

Additional observations from a re-analysis of the deposited data

How the results depend on the processing

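The members' median log2 fold change stayed below 0 in all 12 alternatives and ranged from -0.196 to -0.0236 when a library was left out. The median of all genes tested moved as well. With upper quartile scaling it was 0.056, beside -0.083 for the members. With no low-count filter it was -0.069, beside -0.136 for the members. The number of members called was 0 in both directions with the size factors of DESeq2, upper quartile scaling, limma-voom, the filter of 5 CPM in 2 libraries, the 10 most abundant genes left out and the replicate block. The DESeq2 Wald test called 193 genes higher and 271 lower (3.76% of those it tested), with 1 member and 4 wider genes lower. With no low-count filter 615 of 19828 genes were higher and 719 lower. In that setting 3 of 34 members were lower, and of 140 wider genes 3 were higher and 8 lower. With the letter as a replicate block 344 of 12843 genes were higher and 472 lower, and of 137 wider genes 2 were higher and 6 lower. The letters are not stated to pair libraries, and same-letter deviations from the group means had a correlation of 0.123 across genes. Leaving out 1 library gave 24 to 2502 genes higher and 24 to 2861 lower, 0 to 1 members higher and 0 to 9 lower, and 0 to 18 wider genes higher and 0 to 49 lower. In these fits the single library left in a group was given the spread of the other condition. The cause of the other differences was not tested. Depth limits Map1lc3a and Tfeb most, with 179 and 184 reads in all.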
